A study of Mus musculus with 8 samples.

Results

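The 10 genes described here are markers and secreted products of adipocytes: *Adipoq*, *Lep*, *Retn*, *Cfd*, *Nrg4*, *Pparg*, *Cebpa*, *Cidec*, *Fabp4* and *Nnat*. They were chosen by name, 10 of 37074 gene names on the array. Every spot that is no control and whose gene name is one of these was taken, which gave 17 spots, 1 per probe, of 59305 such spots. Gene expression was measured on single-color Agilent arrays in 4 Co mice, injected intravenously with saline, and 4 Pg mice, injected intravenously with sonicated *Porphyromonas gingivalis*, a bacterium of periodontal disease, in 100 μL of saline. The labels print the dose as 108 CFU, in which the methods write the 8 as an exponent. All were C57BL/6J mice aged 12 weeks (male by the methods), and tissue labelled as brown adipose tissue (BAT), interscapular by the methods, was taken 18 h after the injection. The comparison asks whether a single exposure to this bacterial material changes endocrine and adipocyte genes of the BAT. Nothing in the labels says whether each array held RNA of 1 mouse, so p-values measure the spread between these arrays.

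Adipocytes arise when the nuclear receptor PPARγ (*Pparg*) and the transcription factor C/EBPα (*Cebpa*) switch on each other and a common set of target genes. Mature fat cells then take up and carry fatty acids, store them in lipid droplets and release hormones, the adipokines, among them adiponectin, leptin, resistin and adipsin. Brown adipocytes hold many small droplets and burn lipid through UCP1, whereas white adipocytes hold 1 large droplet and release more leptin and resistin.

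All 8 arrays lay on 1 slide and were scanned together. The Co arrays filled its row 1 and the Pg arrays its row 2, so that group and slide row cannot be told apart. The scanner's mark for signal well above background was set for 34760 to 35831 probes per Co array and for 31132 to 34063 per Pg array. Values below are log2 of the background-subtracted signal after quantile normalization between arrays, called the level. A level depends on the probe, so levels of different probes were not ranked. The precision is limited by the number of arrays.

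The tissue label was set against marker genes. *Ucp1*, the uncoupling protein that defines brown adipocytes, and *Elovl3*, a fatty acid elongase of the same cells, were well above background on 0 of 8 arrays. *Cidea*, a droplet protein of brown fat, was above background on all 8, between 13.16 and 13.52. All 35 probes of 20 skeletal muscle genes were above background on all 8 arrays, with *Acta1*, skeletal α-actin, between 18.41 and 18.57 and *Ckm*, muscle creatine kinase, between 16.77 and 17.02. The summed signal of the muscle probes ran from 5448226 to 5751867 on Co arrays and from 5259619 to 5568200 on Pg arrays. Of 19 probes of the brown adipocyte list, 12 were above background on all 8 arrays and 4 on none, and its summed signal ran from 683218 to 755632 on Co arrays and from 749933 to 792610 on Pg arrays. *Ucp1* and *Elovl3* thus went against the label. Most of the brown list was detected, but the part of muscle in its signal was not tested. The genes below are described in the tissue labelled as BAT. Their level on an array reflects all cells in the piece taken, and in such bulk RNA fewer adipocytes and less RNA per adipocyte cannot be told apart.

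Of the 17 probes, 13 were above background on all 8 arrays and 1 on none, and 14 probes, with all 10 genes among them, were above background on at least 4 arrays and entered the test. The probes are 60 bases long and their positions are those of the array design in build mm9. *Adipoq* is read at chr16:23157576-23157635 on the plus strand and *Lep* at chr6:29020910-29020969 on the plus strand. Both have 1 probe. *Retn* has probe 1 at chr8:3659757-3659816 and probe 2 at chr8:3657312-3657371, both on the plus strand. *Cfd* has probe 1 at chr10:79355302-79355361 and probe 2 at chr10:79355274-79355333, both on the plus strand, which share 32 bases and are not independent readings. *Fabp4* has probe 1 at chr3:10204452-10204511 and probe 2 at chr3:10208442-10208501 on the minus strand. *Cidec* lies at chr6:113374693-113374752 on the minus strand, *Cebpa* at chr7:35906517-35906576 and *Nnat* at chr2:157387978-157388037, both on the plus strand. *Pparg* probe 1 lies at chr6:115440213-115440272 and probe 2 at chr6:115413557-115413616. *Nrg4* has 4 probes on the minus strand of chromosome 9, and probe 4 spans 8559 bases of the genome, from 55075745 to 55084303, so that it crosses an exon junction. Probes of a gene are numbered by falling mean level. Gene models of mm9 were not used here, so exons and untranslated parts were not assigned.

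The probe sequences are shown for the adipokines whose arrays differed most (*Adipoq*, *Retn* and *Cfd*) and, beside them, for *Lep* and *Fabp4*, whose arrays differed least, among probes above background on all 8 arrays. They run 5′ to 3′ as on the array, and the capitals in the *Cfd* probe mark the 32 bases that both *Cfd* probes hold.
Adipoq: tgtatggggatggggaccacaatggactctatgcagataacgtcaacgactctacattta
Retn probe 2: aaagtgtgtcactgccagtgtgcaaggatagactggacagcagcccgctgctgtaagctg
Cfd probe 2: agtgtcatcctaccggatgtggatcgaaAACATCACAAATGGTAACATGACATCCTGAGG
Lep: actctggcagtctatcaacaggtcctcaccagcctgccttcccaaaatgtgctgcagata
Fabp4 probe 2: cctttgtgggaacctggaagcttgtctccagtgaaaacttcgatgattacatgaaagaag

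*Adipoq*, which encodes the insulin-sensitizing hormone adiponectin, had nearly the same mean in Co and Pg mice, but differed widely among the arrays of each group. Its level was 9.61, 11.31, 10.21 and 10.01 on Co 1 to Co 4 and 11.09, 9.84, 10 and 10.23 on Pg 1 to Pg 4. Co 2 and Pg 1 were both high, the groups overlapped, and the highest array stood 3.25-fold above the lowest. Co 2 and Pg 1 were also the highest before normalization between arrays, with a signal of 2308 on Co 2 and 2312 on Pg 1 and between 805 and 1231 on the other 6 arrays. The group means were 10.29 ± 0.73 (SD, n = 4) in Co and 10.29 ± 0.56 (SD, n = 4) in Pg mice. The log2 difference was 0.01 (SE 0.40, 95% confidence interval -0.93 to 0.94), with an adjusted p of 0.995 by limma's moderated test over all 33819 probes. That interval runs from 0.525-fold to 1.92-fold, so that changes within that range are not excluded.

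*Lep*, the satiety hormone leptin, had the smallest spread within groups of these genes. Its level was 8.44, 8.70, 8.39 and 8.52 on Co 1 to Co 4 and 8.59, 8.57, 8.66 and 8.68 on Pg 1 to Pg 4. The arrays spread over 0.30 and Co 2, at 8.70, was the highest of all. Between groups it differed by 0.12 on the log2 scale (SE 0.08, 95% confidence interval -0.06 to 0.29) with an adjusted p of 0.406 by limma.

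*Retn*, which encodes resistin, a hormone made by white adipocytes in mice, had its highest levels on the same arrays as *Adipoq*. Its probe 1 read 9.20, 10.40, 9.56 and 9.16 on Co 1 to Co 4 and 10.58, 8.98, 9.32 and 9.78 on Pg 1 to Pg 4. Probe 2 read 9.03, 10.29, 9.45 and 9.15 on the Co arrays and 10.23, 8.94, 9.18 and 9.66 on the Pg arrays. On both probes Co 2 and Pg 1 were the highest arrays, Pg 4 came next, and the groups overlapped. The log2 differences were 0.08 (95% confidence interval -0.83 to 1.00) for probe 1 and 0.02 (-0.80 to 0.84) for probe 2.

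*Cfd*, which encodes adipsin, the complement factor D that adipocytes secrete, was highest on Pg 1 and Co 2. Probe 1 read 12.73, 13.84, 13.24 and 12.68 on Co 1 to Co 4 and 14.29, 12.86, 12.67 and 13.46 on Pg 1 to Pg 4. Pg 4 and Co 3 came next, and the highest array stood 3.07-fold above the lowest. Probe 2, with which it shares bases, ran from 11.98 on Pg 3 to 13.58 on Pg 1. The log2 differences were 0.20 (95% confidence interval -0.72 to 1.12) and 0.04 (-0.85 to 0.93), both with an adjusted p over 0.1 by limma (0.798 and 0.959).

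*Nrg4*, a growth factor of the neuregulin family that brown adipocytes secrete, was above background on all 8 arrays by 1 of its 4 probes. Probe 1 read 6.73, 6.61, 6.62 and 6.39 on Co 1 to Co 4 and 6.50, 6.45, 5.97 and 5.99 on Pg 1 to Pg 4. Pg 3 and Pg 4 were the lowest arrays, while Pg 1 and Pg 2 lay within the range of the Co arrays. Pg minus Co was -0.36 (SE 0.15, 95% confidence interval -0.70 to -0.02), with an unadjusted p of 0.0394 and an adjusted p of 0.195 by limma, which is not below the threshold of 0.1. Probe 2 was above background on 4 Co arrays and on 1 Pg array, Pg 1, where it was highest, at 6.26 against 4.07 to 5.36 on the other arrays. Its difference was 0.04 (95% confidence interval -0.99 to 1.07, adjusted p 0.967 by limma). The probe entered the test through the Co arrays, so the size of that difference was not measured. Probe 3 was above background on 1 Co and 1 Pg array (4.32 on Co 2 and 4.82 on Pg 1), and probe 4 on 1 Co array, at 4.33 on Co 2. Neither was tested.

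**Figure D1:**
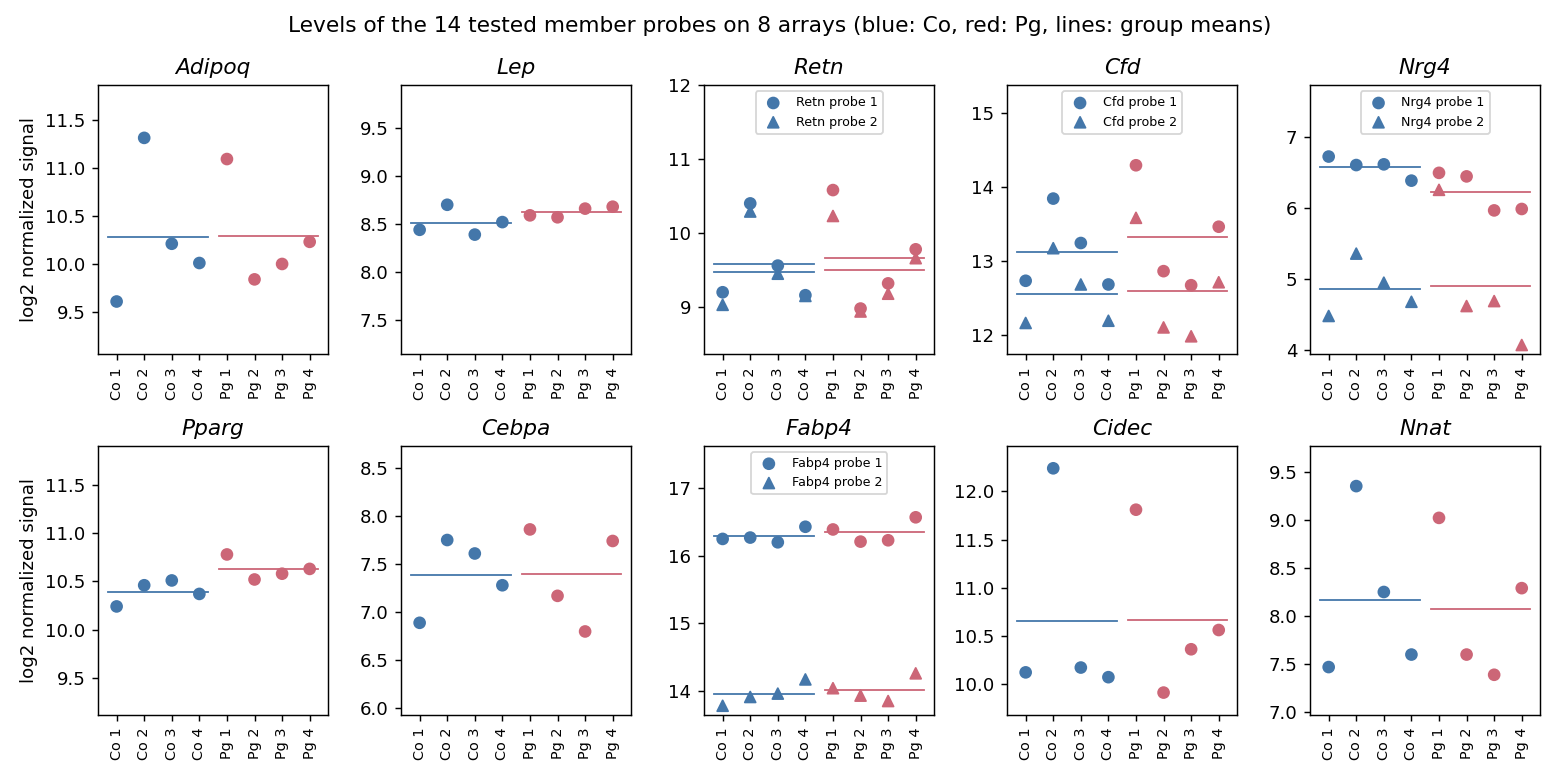
Log2 normalized signal (vertical axes, each at its own height) of the 14 tested probes on the 4 Co arrays (blue) and the 4 Pg arrays (red), 1 panel per gene, with circles and triangles for probes 1 and 2 and lines at the group means (n = 4). Co 2 and Pg 1 stand above the rest for *Adipoq*, *Retn*, *Cfd*, *Cidec* and *Nnat*, whereas *Lep* and *Fabp4* spread over 0.30 to 0.48.

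Of the transcription factors, *Pparg*, the master regulator of adipocyte differentiation, was the member whose groups did not overlap. Probe 1 read 10.24, 10.46, 10.51 and 10.37 on Co 1 to Co 4 and 10.78, 10.52, 10.58 and 10.63 on Pg 1 to Pg 4. Each Pg array lay above each Co array, the nearest being Pg 2 and Co 3. The log2 difference was 0.23 (SE 0.08, 95% confidence interval 0.04 to 0.43), or 1.18-fold, with an unadjusted p of 0.0246 and an adjusted p of 0.158 by limma. Among all probes tested 15.8% had groups that did not overlap, so 1 of 14 was no more than the background. Probe 2, designed on another transcript, was well above background on 0 of 8 arrays.

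*Cebpa*, which acts beside *Pparg* in adipocyte differentiation, read 6.89, 7.75, 7.61 and 7.28 on Co 1 to Co 4 and 7.86, 7.17, 6.80 and 7.74 on Pg 1 to Pg 4. Pg 1, Co 2 and Pg 4 were the highest arrays, and the groups overlapped. The log2 difference was 0.01 (SE 0.28, 95% confidence interval -0.63 to 0.66), with an adjusted p of 0.986 by limma.

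*Cidec*, which encodes the droplet protein that fuses small lipid droplets into large ones, varied most of the genes above background on all arrays. It read 10.12, 12.24, 10.17 and 10.07 on Co 1 to Co 4 and 11.81, 9.91, 10.36 and 10.56 on Pg 1 to Pg 4. Co 2 lay 5.06-fold above the lowest array, Pg 2, and the other 3 Co arrays lay between 10.07 and 10.17. The log2 difference was 0.01 (SE 0.59, 95% confidence interval -1.35 to 1.37), with an adjusted p of 0.995 by limma. Without Co 2 the difference was 0.54 and without Pg 1 it was -0.38. It was also below 0 without Co 1, Co 3 or Co 4 (-0.17, -0.15 and -0.19), and no direction can be given. Its relative *Cidea* spread over 13.16 to 13.52 on the same arrays.

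*Fabp4*, the fatty acid carrier aP2 of adipocytes and capillary endothelium, hardly varied. Probe 1 read 16.25, 16.27, 16.20 and 16.43 on Co 1 to Co 4 and 16.39, 16.21, 16.23 and 16.57 on Pg 1 to Pg 4. Pg 4 and Co 4 were the highest arrays on both probes, and probe 2 ran from 13.78 on Co 1 to 14.26 on Pg 4. No spot of any member was saturated. Both probes had a log2 difference of 0.06, with 95% confidence intervals of -0.16 to 0.29 and -0.20 to 0.33.

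*Nnat*, which encodes neuronatin, an imprinted membrane protein of brain and adipose tissue, was also highest on Co 2 and Pg 1. It read 7.47, 9.35, 8.25 and 7.60 on Co 1 to Co 4 and 9.02, 7.60, 7.39 and 8.29 on Pg 1 to Pg 4. The highest array stood 3.89-fold above the lowest. Its log2 difference was -0.10 (SE 0.50, 95% confidence interval -1.24 to 1.05), with an adjusted p of 0.926 by limma.

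Over the 14 tested probes, 0 passed q under 0.1 in limma, against 7.82% of all 33819 probes tested, and 0 were DEGs (q under 0.1 and a fold change above 1.5), against 1.61% of all. At an unadjusted p under 0.05 there were 2, probe 1 of *Pparg* and probe 1 of *Nrg4*, against 22.8% of all probes. The methods' t-test with Benjamini-Hochberg adjustment also gave 0 at q under 0.1. The differences were above 0 for 12 probes and below 0 for 2, and their median was 0.04, against -0.04 over all probes tested. The 12 include *Nrg4* probe 2, which was near background on most Pg arrays. For *Adipoq* and *Cidec* the sign changed with 5 settings of the background step, the scaling or the array weights, the authors' values included. The interval was narrow for *Lep*, *Fabp4* and *Pparg*, and for *Adipoq*, *Retn*, *Cfd*, *Cidec* and *Nnat* it reached a log2 change of at least 0.80 in either direction except for *Cfd* probe 1, where its lower end was -0.72.

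Left out together, a choice made after seeing the data, Co 2 and Pg 1 left 3 arrays per group. The *Adipoq* difference was then 0.08 (95% confidence interval -0.38 to 0.53) and the *Cidec* difference 0.16 (-0.27 to 0.58). *Lep* was at 0.19 (0.01 to 0.37), with an unadjusted p of 0.0435 and an adjusted p of 0.304 by limma, *Pparg* probe 1 at 0.20 (-0.02 to 0.43) and *Nrg4* probe 1 at -0.45 (-0.85 to -0.04). Of the 14 probes 0 passed q under 0.1, but only 1 of all 33819 probes did, so this count says little about the members. At an unadjusted p under 0.05 there were 2, and the share of all probes at that p was not computed for this fit.

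**Figure D2:**
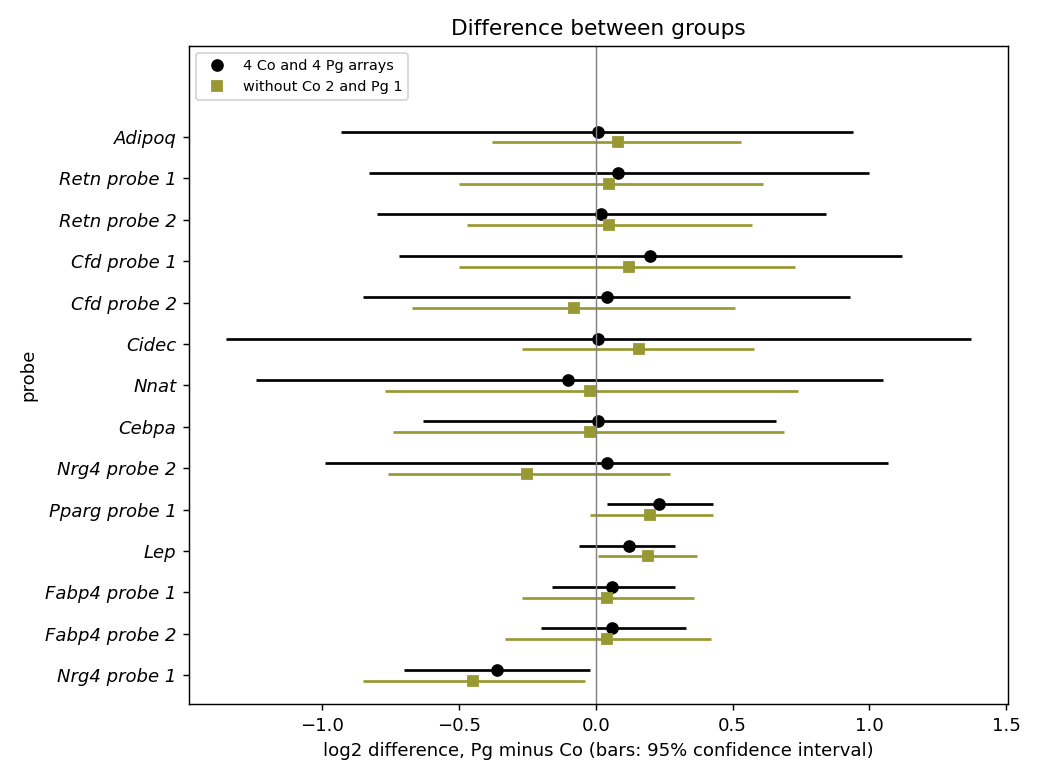
Log2 difference between Pg and Co (horizontal axis) of the 14 tested probes (vertical axis), with 95% confidence intervals from limma, for all 8 arrays (black circles) and without Co 2 and Pg 1 (olive squares). All points lie between -0.45 and 0.23, and the intervals of *Adipoq* and *Cidec* narrow when the 2 arrays are left out.

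For *Adipoq*, *Retn*, *Cfd*, *Cidec* and *Nnat* the spread within groups was larger than the difference between them. The within-group SD was 0.95 for *Cidec*, larger than for 98.3% of all tested probes, 0.80 for *Nnat* (97.4%), 0.65 for *Adipoq* (95.8%) and 0.62 to 0.64 for the *Cfd* probes (95.3% and 95.7%). The median over all tested probes was 0.16. *Lep*, at 0.10, *Pparg* probe 1, at 0.11, and *Fabp4* probe 1, at 0.14, lay below it.

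On Co 2 and Pg 1, *Cidec* lay 1.59 and 1.15 above its mean over 8 arrays, *Nnat* 1.23 and 0.90, *Adipoq* 1.02 and 0.81, *Retn* probe 1 0.78 and 0.95, and *Cfd* probe 1 0.62 and 1.07. *Fabp4* probe 1 was at -0.05 and 0.07 and *Lep* at 0.13 and 0.02 on the same arrays. For 9 of the 14 probes Co 2 and Pg 1 were the 2 highest arrays, as for 923 of 33818 tested probes (2.73%, leaving out 1 probe with the same value on every array). The mean deviation of the 14 probes was 0.54 on Co 2 and 0.64 on Pg 1, and between -0.35 and 0.04 on the other arrays. The summed signal of the members other than *Fabp4* ran from 16349 to 36687 on Co arrays and from 16394 to 43808 on Pg arrays, with the top of each range on Co 2 and Pg 1, while *Fabp4* ran from 91331 to 106505 and from 91155 to 116850.

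**Figure D3:**
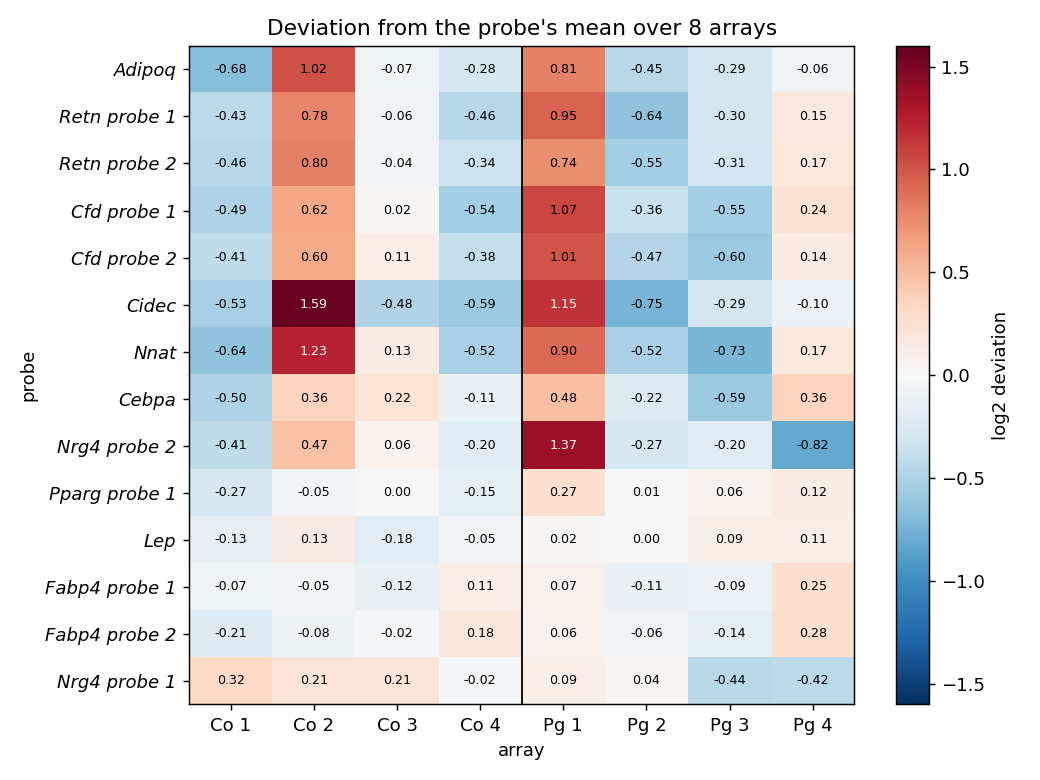
Deviation of each tested probe (vertical axis) from its own mean over 8 arrays, in log2 units, on each array (horizontal axis, Co left and Pg right of the line), with red above and blue below the mean. *Adipoq*, *Retn*, *Cfd*, *Cidec* and *Nnat* are red on Co 2 and Pg 1, up to 1.59, and the rows of *Lep* and *Fabp4* lie between -0.21 and 0.28.

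Likeness to *Adipoq* was described with Pearson's r over the 8 arrays, which share a slide and its scaling. The r was 0.95 and 0.97 for the *Retn* probes, 0.96 for *Cidec* and *Nnat*, 0.90 for both *Cfd* probes and 0.78 for *Cebpa*. It was 0.52 for *Pparg* probe 1, 0.49 for *Lep*, 0.17 for both *Fabp4* probes and 0.16 and 0.76 for *Nrg4* probes 1 and 2. These values rest in part on Co 2 and Pg 1, the arrays farthest from the median of *Adipoq*. Over the other 6 arrays r was 0.76 and 0.85 for *Retn*, 0.71 for both *Cfd* probes, 0.78 for *Nnat* and *Cebpa*, 0.57 for *Cidec*, 0.25 for *Lep* and -0.51 and -0.02 for *Nrg4* probes 1 and 2. Over those 6 arrays the *Fabp4* probes stood at 0.45 and 0.69 and *Pparg* probe 1 at 0.75. An r of at least 0.9 was reached by 6 of the 13 other member probes and by 51 of 33817 tested probes (0.151%).

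**Figure D4:**
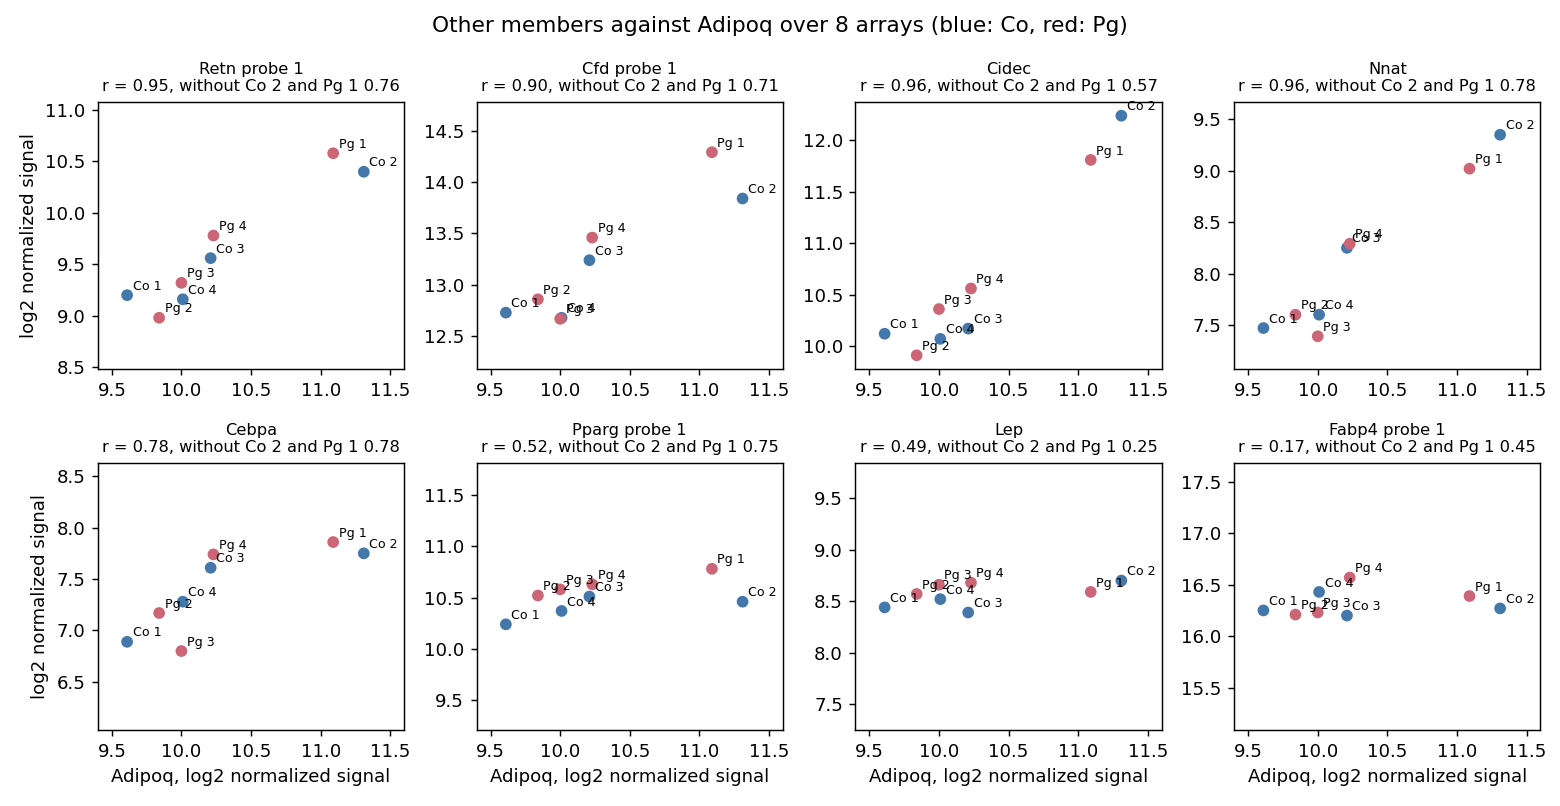
Log2 level of 8 member probes (vertical axes) against that of *Adipoq* (horizontal axis) on the 8 arrays, Co in blue and Pg in red, with Pearson's r over 8 arrays and over 6. Co 2 and Pg 1 lie at the upper right for *Retn*, *Cfd*, *Cidec* and *Nnat*, and *Fabp4* and *Lep* stay nearly level along the axis.

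Of the 10 probes most like *Adipoq* over 8 arrays, 3 were members (*Retn* probe 2, *Cidec* and *Nnat*). *Scd1*, the desaturase that makes monounsaturated fatty acids, followed with r = 0.96 and ran from 9.79 on Pg 2 to 12.25 on Co 2. *Sfrp5*, a secreted Wnt inhibitor of adipocytes, had r = 0.96 with levels of 10.62 on Co 2 and 10.73 on Pg 1 and at most 10.22 elsewhere. *Acvr1c*, the activin receptor ALK7 of adipocytes, had r = 0.95 with 5.78 on Co 2 and 5.74 on Pg 1. The others were *Lgi2* and *Cntf*, a neurotrophic factor, *Cd1d2*, a lipid antigen-presenting molecule, and an unnamed transcript (NAP111644-1), with r of 0.96 to 0.97. *Plin1*, the perilipin that coats the droplets of adipocytes, also had its highest levels on these arrays by its brightest probe, 7.67 on Co 2 and 8.27 on Pg 1 against 6.53 to 7.29 on the others. *Scd1* and *Plin1* belong to a list of adipocyte lipid, transport and droplet genes that did not follow *Adipoq* as a whole. Over its 50 tested probes the median r was -0.06, and 3 (6%) reached 0.9. Its mean deviation was 0.17 on Co 2 and 0.09 on Pg 1.

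Markers of other cell types were set beside these genes on the same arrays. On Co 2 and Pg 1 the mean deviation of the muscle probes was 0.18 and -0.33, that of the macrophage probes -0.27 and -0.08, of the endothelial probes -0.04 and -0.03 and of the preadipocyte and fibroblast probes -0.23 and -0.10. The peripheral nerve probes were at 0.09 and 0.08. The neutrophil probes were at -0.38 on Co 2 and at 0.92 on Pg 1, and at 0.89 on Pg 2. The brown adipocyte list was at 0.01 and 0.12, and the white adipocyte list, which holds *Lep*, *Retn* and *Nnat*, at 0.25 and 0.08. Without those members its 9 tested probes were at 0.03 and -0.18. No probe of the 8 marker lists other than those of *Retn* and *Nnat* reached r = 0.9 with *Adipoq*. The part of these cell types in the members' levels was not tested.

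**Figure D5:**
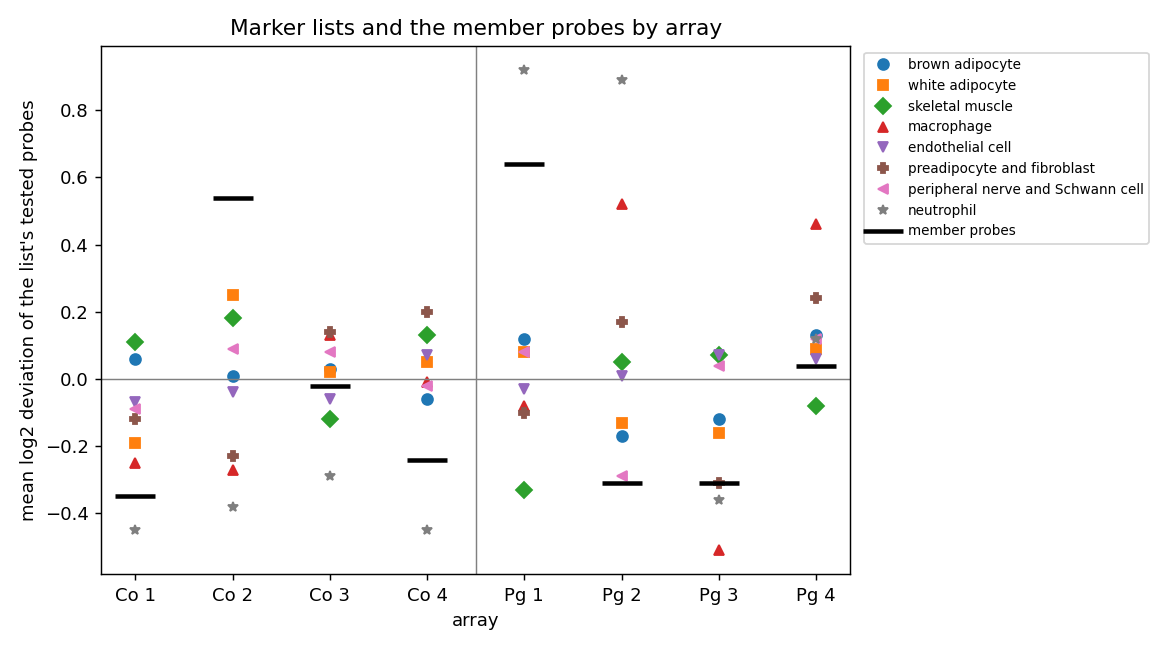
Mean log2 deviation of the tested probes of 8 marker gene lists (symbols) and of the 14 member probes (black bars) on each array (horizontal axis). The member probes stand at 0.54 on Co 2 and 0.64 on Pg 1, where the muscle list is at 0.18 and -0.33, and the neutrophil list is high on Pg 1 and Pg 2.

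Promoters are shown for *Adipoq*, *Retn* and *Cfd*, which varied together, and for *Lep*, which did not. RefSeq sequence in build GRCm38.p6 was at hand for 9 of the 10 genes (12 promoters, since *Cidec* has 2 and *Pparg* 3), not for *Fabp4*. The 250 bases before each start were searched on both strands for AGGTCA, the core that nuclear receptors such as PPARγ bind, for TTGCNNAA, a C/EBP-type motif, and for TATAAA, the TATA box. AGGTCA was found in 3 of the 12 promoters (14% of all 32851 promoters of this length hold it), TTGCNNAA in 3 (9.56%) and TATAAA in 2 (12.4%). None of the 3 lies in the windows of *Adipoq*, *Retn*, *Cfd* or *Nnat*. *Cidec*, which varied with them, holds TTGCNNAA in its promoter 2, beginning 198 bases before the start. *Lep* holds TTGCNNAA beginning 55 bases before the start, and *Cebpa* TATAAA beginning 30 bases before it. AGGTCA lies in *Pparg* promoters 1 and 2 and, in the opposite sense, at 2 places in *Nrg4*. In the windows below, which run 5′ to 3′ along the gene, capitals mark a match.
Adipoq, chr16:23146286-23146535, plus strand: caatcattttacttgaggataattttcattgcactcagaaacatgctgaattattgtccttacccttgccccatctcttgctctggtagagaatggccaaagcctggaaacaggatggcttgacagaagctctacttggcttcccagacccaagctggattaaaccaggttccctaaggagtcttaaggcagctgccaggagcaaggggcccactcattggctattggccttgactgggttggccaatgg
Retn, chr8:3655520-3655769, plus strand: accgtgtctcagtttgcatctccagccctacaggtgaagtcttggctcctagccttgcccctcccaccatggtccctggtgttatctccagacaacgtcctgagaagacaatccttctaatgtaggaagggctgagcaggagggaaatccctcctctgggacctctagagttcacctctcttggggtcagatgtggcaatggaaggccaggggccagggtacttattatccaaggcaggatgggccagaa
Cfd, chr10:79890603-79890852, plus strand: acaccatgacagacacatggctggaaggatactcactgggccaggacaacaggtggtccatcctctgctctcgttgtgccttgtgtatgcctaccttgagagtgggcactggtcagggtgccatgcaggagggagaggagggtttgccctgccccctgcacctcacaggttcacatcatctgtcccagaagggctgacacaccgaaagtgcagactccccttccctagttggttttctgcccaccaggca
Lep, chr6:29059971-29060220, plus strand: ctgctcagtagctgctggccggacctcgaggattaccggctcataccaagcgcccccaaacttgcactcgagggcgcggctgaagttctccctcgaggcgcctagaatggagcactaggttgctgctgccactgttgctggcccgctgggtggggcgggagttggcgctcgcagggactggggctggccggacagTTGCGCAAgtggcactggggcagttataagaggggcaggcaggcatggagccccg

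The receptors of these hormones were tested next. Of 22 tested probes of 8 receptor genes, limma called 0 at q under 0.1 and 3 at an unadjusted p under 0.05 (against 7.82% and 22.8% of all probes), with a median difference of -0.03. The adiponectin receptors *Adipor1* and *Adipor2* were each above background on all arrays by more than 1 probe, *Adipor1* at 13.19 ± 0.09 (SD, n = 4) in Co and 13.13 ± 0.08 in Pg mice by 1 of its probes. The leptin receptor *Lepr* was at 10.66 ± 0.14 (SD, n = 4) and 10.84 ± 0.16 by its brightest probe, with an adjusted p of 0.328 by limma. *Cdh13*, the T-cadherin that binds adiponectin, had the largest difference of the list, 0.79 on 1 probe (adjusted p 0.122), whereas 2 of its other 4 tested probes had a negative difference. For NRG4 the receptor *Erbb4* was at 10.41 ± 0.11 and 10.27 ± 0.07 (SD, n = 4), with an adjusted p of 0.294.

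Among 27 tested probes of 16 adipogenic transcription factors and cofactors, 2 passed q under 0.1 (7.41%, against 7.82% of all). *Klf4*, an early activator of adipogenesis, rose from 12.46 ± 0.10 in Co to 13.19 ± 0.18 in Pg mice (SD, n = 4), a log2 difference of 0.73 with an adjusted p of 0.0398 by limma. *Klf5*, which acts before *Pparg*, fell from 9.33 ± 0.09 to 8.83 ± 0.18 (adjusted p 0.0571). Of 21 probes of inhibitors of adipogenesis, 3 passed (14.3%, against 7.82% of all), a count that includes *Dlk1*, which was near background on most Pg arrays. *Klf2*, which represses *Pparg*, rose by 0.87 (adjusted p 0.0528), *Klf3* rose by 0.36 on 1 of 3 probes (adjusted p 0.0528), and the remaining call was *Dlk1*, the preadipocyte factor Pref-1, at 4.91 ± 0.30 in Co and 4.16 ± 0.34 in Pg mice (SD, n = 4, adjusted p 0.0929 by limma). The *Dlk1* probe was above background on 4 Co arrays and 1 Pg array, so that it entered the test through the Co arrays and the size of its difference was not measured. *Klf2* and *Klf4* are also made by endothelium. Of 18 endothelial probes, 2 passed q under 0.1 (11.1%, against 7.82% of all), *Kdr* at 0.57 and *Egfl7* at 0.42 (adjusted p 0.0573 and 0.0419 by limma). In that list 12 probes had a positive and 6 a negative difference, with a median of 0.08, and *Pecam1*, which defines the type, was at -0.20 (adjusted p 0.151). The part of endothelium in these values was not tested.

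Of 50 tested probes of 30 adipocyte lipid, transport and droplet genes, 6 passed q under 0.1 (12.0%, against 7.82% of all), all lower in Pg mice, as were 2028 of the 2644 calls over all probes (76.7%). *Lpl*, the lipoprotein lipase, fell by 0.32 and 0.34 on 2 probes (adjusted p 0.0683 and 0.0628), *Acsl1*, an acyl-CoA synthetase, by 0.34 and 0.81 on 2 probes (0.0983 and 0.0659), *Agpat2*, an enzyme of triglyceride synthesis, by 0.28 (0.0796) and *Slc2a4*, the glucose transporter GLUT4, by 0.34 (0.0668). Other tested probes of these genes were not all lower: 3 of the remaining 4 probes of *Lpl* were higher in Pg mice without passing the test, and the remaining probes of *Acsl1* and *Slc2a4* stood at 0.00 and 0.01 (adjusted p 0.991 and 0.912 by limma). Skeletal muscle also makes *Lpl*, *Acsl1* and *Slc2a4*. In the muscle list 2 of 35 probes (5.71%, against 7.82% of all) passed the test, *Atp2a1* lower in Pg mice by 0.44 (adjusted p 0.0411) and *Des* by 0.40 (0.0992), 29 of 35 had a negative difference, and the part of this in the lipid genes was not tested. *Scd1*, at -0.34, and *Plin1*, at 0.35 on its brightest probe, had an adjusted p of 0.743 and 0.641 by limma. Among 32 probes of other secreted factors, 1 of *Igf1*, insulin-like growth factor 1, rose by 0.79 (adjusted p 0.0517 by limma), from 4.81 to 5.60. Of the 2 other tested *Igf1* probes, 1 had a difference of the same sign and 0 passed. In the CIDE and fatty acid binding protein families limma called 0 of 10 probes at q under 0.1 and, unadjusted, 1 at p under 0.05, *Fabp5* at 0.37 (against 7.82% and 22.8% of all).

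These list counts, like the calls over all probes, depended on single arrays. Without Co 3 the calls were 0 in every one of these lists and 3 among all 33819 probes, against 2644 with 8 arrays. Over all probes they were 1003, 234 and 555 without Co 1, Co 2 and Co 4. Without Pg 1, Pg 2, Pg 3 and Pg 4 they were 627, 675, 2411 and 806. The count of lipid genes was 4 without Pg 3 and 0 without any other single array. For the transcription factors it was 5 without Pg 3, 2 without Pg 1 and 1 without Co 1, Co 2, Co 4, Pg 2 or Pg 4. For the inhibitors it was 0 without Co 2 or Pg 1, 1 without Pg 2, 3 without Pg 3 and 2 otherwise, and for the other secreted factors 0 without Co 2, 3 without Pg 3, 1 without Co 4 or Pg 4 and 2 otherwise. In the CIDE and fatty acid binding protein families it was 1 without Pg 3. With Co 2 and Pg 1 both left out, 1 of 33819 probes passed.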

How the data were processed

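Per the file headers, the authors made the intensity of each spot with Agilent Feature Extraction 11.0.1.1 from single-color arrays (SurePrint G3 mouse 8 x 60K, Cy3): the deposited intensity columns used here hold the processed signal, which the software had background-subtracted and detrended, and the mean, median and background signals, none of them normalized between arrays. The authors also deposited quantile-normalized log2 values of the 8 arrays for 28067 entries, used here as an alternative; its fold changes, p-values, q-values and other limma columns were not used. Spots marked as population outliers were left out (90 to 150 per array), spots of a probe were averaged, and values were quantile-normalized over 56605 probes, floored at 1 and put on the log2 scale. The 33819 probes that passed the scanner's background mark on 4 or more arrays were compared between Pg and Co with lmFit and eBayes of limma 3.58.1 in R 4.3.3, two-sided, with Benjamini-Hochberg adjustment over all of them, and the fit was tested on simulated data. The methods name quantile normalization, log2, limma, q under 0.1 and a fold change above 1.5. Signals below the scanner's surrogate level and background subtraction make low levels uncertain, and quantile normalization removes a shift common to all probes. Symbols came from RefSeq through the probe's accession for 32994 probes, and from the array otherwise. Members were matched by the array's gene name.

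The members and gene lists were chosen with earlier results of these data known. Named were all members, in each list the genes with a q under 0.1 and the one with the largest difference, the 10 probes of highest r with *Adipoq*, and *Ucp1*, *Elovl3*, *Cidea*, *Acta1*, *Ckm*, *Adgre1*, *Pecam1* and *Plin1*; the receptors other than *Cdh13*, and *Fabp3*, *Plin4*, *Rarres2*, *Cxcl14* and *Fgf21*, were named after their values were seen. A result in the list of other secreted factors is not reported here. Of the brown list *Clstn3b* and of the white list *Wdnm1-like* had no probe under that name. Of the marker lists, the peripheral nerve list had 0 of 18 and the macrophage, neutrophil, brown and white lists 0 of 16, 6, 13 and 13 tested probes with q under 0.1 in limma. The preadipocyte list had 1 of 21 (4.76%), the *Dlk1* probe described above, against 7.82% of all probes. At an unadjusted p under 0.05 the nerve, macrophage, neutrophil, brown and white lists had 2, 2, 3, 3 and 0, against 22.8% of all probes. *Adgre1* of macrophages ran from 6.61 to 8.52 and *Pecam1* of endothelium from 9.06 to 9.50. Promoter sequences are RefSeq's in GRCm38.p6. Alternatives were other background steps, scalings and filters, the authors' values, the methods' t-test, limma-trend, array weights, the replicate number as a block and leaving out each array.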

Additional observations from a re-analysis of the deposited data

Results flagged for a closer look

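In each group of 4 arrays, the gap of the highest or lowest array to its neighbour was set against the range for the 14 tested probes (28 groups). *Cidec* in the Co mice exceeded the critical ratio of Dixon's test at the 95% level: Co 2 stood at 12.24, with the next array at 10.17 and the lowest at 10.07, a ratio of 0.95. Chance gives such a gap in about 5% of groups, and 1 of 28 is close to that. The same array was also the highest for *Adipoq*, *Lep*, *Retn* probe 2 and *Nnat* over all 8.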

How the results depend on the processing

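No member probe passed q under 0.1 under any of the settings tried. Over all probes the calls ran from 0 with the replicate block to 3484 with limma-trend. Where few of all probes passed, such as 3 without Co 3 or 29 with no normalization, a count of 0 says little about the members. The signs of small differences were less firm. With normexp on the mean signal the log2 difference was -0.01 for *Adipoq*, *Cfd* probe 2 and *Cidec*. With the median signal without background subtraction it was -0.06 for *Adipoq*, -0.03 for *Cidec* and 0.02 for *Nnat*, and the range of *Nrg4* probe 2 over arrays was 0.89 instead of 2.19. With scaling to the 75th percentile it was -0.03 for *Adipoq* and *Cidec*. With the authors' normalized values it was -0.06 for *Adipoq*, -0.03 for *Cidec*, -0.13 for *Nrg4* probe 2 and 0.01 for *Nnat*. With array weights it was -0.09 for *Adipoq*, -0.04 for *Retn* probe 2, -0.03 for *Cfd* probe 2 and *Cebpa*, -0.10 for *Cidec* and -0.07 for *Nrg4* probe 2. Leaving out Co 2 and Pg 1 together, chosen after seeing the data, gave -0.08 for *Cfd* probe 2, -0.02 for *Cebpa* and -0.25 for *Nrg4* probe 2. The cause of these shifts was not tested.

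With each array left out in turn, the log2 difference ran from -0.26 to 0.35 for *Adipoq*, -0.22 to 0.36 and -0.22 to 0.29 for *Retn* probes 1 and 2, -0.12 to 0.44 and -0.29 to 0.25 for *Cfd* probes 1 and 2, -0.38 to 0.54 for *Cidec*, -0.01 to 0.11 and -0.02 to 0.14 for *Fabp4* probes 1 and 2, -0.15 to 0.21 for *Cebpa*, -0.41 to 0.32 for *Nrg4* probe 2 and -0.41 to 0.30 for *Nnat*. It kept its sign for *Lep* (0.08 to 0.18), *Pparg* probe 1 (0.18 to 0.27) and *Nrg4* probe 1 (-0.46 to -0.28). Of the member probes, 2 had an unadjusted p under 0.05 (against 22.8% of all probes), and 0 to 2 with an array left out, 0 with scaling to the 75th percentile, and 1 each with the methods' t-test and the replicate block. With the authors' values it was 1 of the 10 member probes compared there, and *Nrg4* probe 1 was not among these 10. The share of all probes at that p was not computed under these alternatives. Probes with q under 0.1 with an array left out numbered 0 to 5 for the transcription factors, 0 to 3 for the inhibitors, 0 to 4 for the lipid genes, 0 to 3 for the other secreted factors, 0 to 1 for the CIDE and fatty acid binding protein families and 0 to 6 for the marker lists together. Over all 33819 probes they numbered from 3 without Co 3 to 2411 without Pg 3.

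Replicate numbers follow the slide column. Over all probes, same-numbered arrays did not deviate together (correlations of 0.059, -0.027, -0.068 and 0.178) and were not treated as pairs. Over the member probes the correlations for replicates 1 to 4 were -0.72, -0.87, -0.4 and 0.09. With the replicate block, and likewise with no normalization between arrays, 0 probes passed in the lists of transcription factors, inhibitors, lipid genes and other secreted factors and in the marker lists together, which had 2, 3, 6, 2 and 5. Over all probes, calls numbered 0 with the block, 29 with no normalization and 1546 with scaling to the 75th percentile, against 2644. The 3 probes of *Pparg* and *Nrg4* that were above background on at most 2 arrays carry no test, and 4 arrays per group limit all intervals.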

Other observations

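Lipoprotein lipase was read by 6 probes that did not move together. The 2 with q under 0.1 fell, 1 stood at -0.11 (adjusted p 0.463), whereas the remaining 3 had differences of 0.33, 0.46 and 0.46 (adjusted p 0.440, 0.359 and 0.331 by limma), and all 6 had an r with *Adipoq* between -0.42 and -0.06. The fatty acid binding protein of muscle and heart, *Fabp3*, varied less over the arrays than *Fabp4*, between 17.98 and 18.13 on 1 probe and 18.04 and 18.16 on the other. *Plin4*, a droplet coat protein of adipocytes and muscle, did not follow *Adipoq* (r = -0.07), nor did *Rarres2*, the adipokine chemerin (r = 0.34), or *Cxcl14*, a chemokine released by brown adipocytes (r = 0.11). *Fgf21*, a hormone of liver and stressed brown fat, was above background on 0 of 8 arrays.

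*Dio2*, the deiodinase that activates thyroid hormone in brown fat, had the largest difference of the brown list among probes above background on all 8 arrays, 0.59 (8.29 ± 0.26 in Co and 8.87 ± 0.33 in Pg mice, SD, n = 4), with an adjusted p of 0.129 by limma. *S100a8*, a calcium-binding protein of neutrophils, was at 5.05 ± 0.34 in Co and 7.21 ± 1.58 in Pg mice (SD, n = 4), with an adjusted p of 0.132, and *Lyz2*, a lysozyme of macrophages and neutrophils, at 12.81 ± 0.45 and 13.41 ± 0.92, with an adjusted p of 0.464. Among probes above background on all 8 arrays, the largest differences of the white, muscle, fibroblast and nerve lists were *Psat1* at -0.25, *Myh4* at -0.77, *Dpp4* at -0.38 and *Mag* at 0.41, and limma gave adjusted p of 0.321, 0.772, 0.423 and 0.234. *Myh4*, the fast myosin IIb, spread more within groups, with an SD of 1.61 in Co and 2.70 in Pg mice (n = 4), than any member.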
